A study of Mus musculus with 8 samples.

Results

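The subject here is a set of 8 genes of lymphocyte adhesion: the integrin alpha chains Itga4 and Itgal, the integrin beta chains Itgb1, Itgb2 and Itgb7, the integrin ligands Icam1 and Icam2, and the hyaluronan receptor Cd44. They were taken by gene symbol from a table of 23302 entries, and all 8 were found and tested. The table holds RNA sequencing of naive B cells from the spleens of C57BL/6 mice, as 8 libraries in 4 groups of 2. The groups were wild-type mice without a tumor (WT nontumor), wild-type mice with a tumor (WT tumor), and mice of the genotype labelled B-EBi3-, called EBi3KO here, without (EBi3KO nontumor) and with a tumor (EBi3KO tumor). By that label the B cells lack Ebi3, a subunit shared by the cytokines IL-35 and IL-27. The tumor is pancreatic according to the series' title. A tumor status of WT was read as no tumor, which the labels do not spell out. The labels used here state no age, tumor line or driver of the deletion. They also do not say if both libraries of a group are from different mice, so the p-values speak only of the spread among libraries, which may be technical.

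Integrins are heterodimers of an alpha and a beta chain that hold lymphocytes to other cells and to matrix, and each chain needs its partner to reach the cell surface. Itga4 pairs with Itgb1 to bind VCAM1 and fibronectin, and with Itgb7 to bind MAdCAM1 on the vessels of the gut. Itgal pairs with Itgb2 to form LFA-1, whose ligands are ICAM1 and ICAM2. LFA-1 and the Itga4 integrins help B cells to enter lymphoid tissue and to stay in the splenic marginal zone. CD44 binds hyaluronan, and its surface level rises when lymphocytes are activated.

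RefSeq promoters (build GRCm38.p6, from 250 bases before to 50 bases after the transcription start) were matched for 5 of the 8 genes. Those of Itga4, Itgb1 and Cd44 are shown, since these 3 had the largest differences of the set in WT mice with a tumor, Itga4 upward and the others downward, in the values as deposited. With a trend on transcript length and GC content removed, Icam2 at 1.05 on the log2 scale lay above Itga4 at 0.83. Each promoter is written 5′ to 3′ on the strand of its gene, and capitals mark the SP1 box GGGCGG, searched on both strands. The windows lie at chr2:79255176-79255475 (plus strand) for Itga4, chr8:128685404-128685703 (plus strand) for Itgb1 and chr2:102901616-102901915 (minus strand) for Cd44.
Itga4: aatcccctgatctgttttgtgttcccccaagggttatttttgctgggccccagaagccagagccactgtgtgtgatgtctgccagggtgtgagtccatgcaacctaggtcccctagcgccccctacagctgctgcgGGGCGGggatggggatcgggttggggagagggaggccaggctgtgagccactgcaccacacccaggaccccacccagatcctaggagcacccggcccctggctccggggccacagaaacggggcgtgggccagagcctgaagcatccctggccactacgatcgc
Itgb1: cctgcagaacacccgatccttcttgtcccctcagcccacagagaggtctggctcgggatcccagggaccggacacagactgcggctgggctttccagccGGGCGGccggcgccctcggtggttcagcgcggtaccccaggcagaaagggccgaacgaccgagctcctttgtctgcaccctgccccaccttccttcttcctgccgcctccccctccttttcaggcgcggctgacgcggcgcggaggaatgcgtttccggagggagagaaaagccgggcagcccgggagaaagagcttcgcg
Cd44: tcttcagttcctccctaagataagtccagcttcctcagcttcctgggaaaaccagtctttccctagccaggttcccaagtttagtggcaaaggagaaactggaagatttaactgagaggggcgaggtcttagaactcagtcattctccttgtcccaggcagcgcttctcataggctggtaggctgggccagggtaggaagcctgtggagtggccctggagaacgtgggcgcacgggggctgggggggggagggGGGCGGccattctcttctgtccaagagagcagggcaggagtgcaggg
In GENCODE M21 (GRCm38) the Itga4 gene spans chr2:79255426-79333123, Itgb1 chr8:128685654-128733200 and Cd44 chr2:102811141-102901665. Itgal spans chr7:127296260-127335138, Itgb2 chr10:77530252-77565708, Itgb7 chr15:102215995-102231944, Icam1 chr9:21015985-21028817 and Icam2 chr11:106377656-106388075. Each of the 3 held 1 SP1 box, which began at -114 in Itga4, at -151 in Itgb1 and at 3 in Cd44, counted from the start site. An SP1 box stood in 35.7% of all 32851 promoters of this length, so its presence does not set these genes apart. The ETS core CGGAAG (16.9% of all promoters) and the kappa B core GGGANTTCC (1.68%), searched on both strands, had no exact match in the windows of the 5 genes. Only these letters were searched, so sites that depart from them would be missed. CpG dinucleotides numbered 27 in the Itgb1 window, above 84.5% of all promoters, and 10 in that of Itga4 and 6 in that of Cd44, against a median of 7 over all.

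Depth lay between 21291892 and 28297319 reads a library. Ebi3 had 201 and 164 normalized counts (reads divided by the authors' size factor) in WT tumor. Its level was low in all 6 other libraries, between 8.7 and 12.8, so that it tells the genotypes apart with a tumor only. The WT tumor libraries stand apart in 2 more ways that cannot be told apart from the tumor. They alone have titles that begin with IV in place of OT, and they alone carry a female pattern, with Xist at 19758 and 26191 normalized counts against at most 18.3 elsewhere and 0 reads of Eif2s3y, Kdm5d and Uty. All comparisons that use WT tumor carry these differences, and those within the other 3 groups do not. The pair of EBi3KO tumor libraries was closer than the others, with a chi-square per degree of freedom over genes of 2.01 against 13.1 to 20.3, which is still more than sampling noise. The B cell marker list stood at 235533 to 272334 summed normalized counts over the 8 libraries, with none of its 9 matched genes at 0.

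In WT mice both alpha chains were higher with a tumor, Itga4 4.15-fold and Itgal 1.63-fold, while the beta chains Itgb1 and Itgb2 and the receptor Cd44 were lower, Cd44 2.53-fold. Itgb7, Icam1 and Icam2 did not pass the test. A gene passed when its adjusted p was below 0.05, with limma fitted to log2 of the normalized count plus 1 over 13011 genes and Benjamini-Hochberg adjustment over all of them. By this rule 2 of the 8 genes rose and 3 fell in WT, where 79.8% of all tested genes passed, so the count itself is below the background. In EBi3KO mice 1 rose and 2 fell, against a background of 32.6%. The tumor difference in EBi3KO differed from that in WT for 5 of the 8 genes, against 52.9% of all genes. The plot of normalized counts by library shows these patterns.

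**Figure D1:**
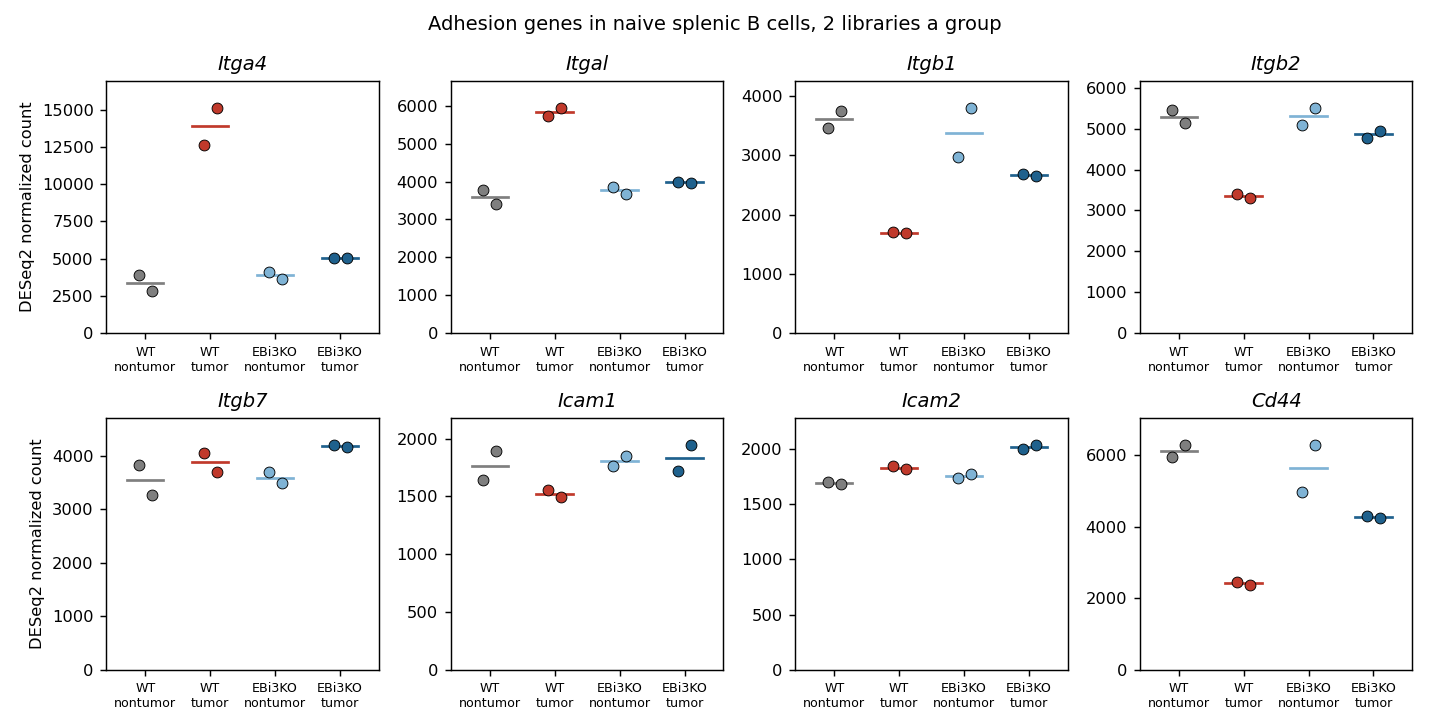
Normalized counts of the 8 genes, each panel with its own axis from 0; points are libraries, 2 in each of the 4 groups on the x axis, and lines are group means. The 2 WT tumor libraries lie above all others for Itga4 and Itgal and below all others for Itgb1, Itgb2 and Cd44.

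Among the alpha chains, Itga4, which encodes the alpha 4 chain, stood at 3914 and 2838 normalized counts without and 12659 and 15121 with a tumor in WT, and 4080 and 3660 without and 5066 and 5067 with a tumor in EBi3KO. The WT tumor libraries were far above all others, the EBi3KO tumor libraries came next, and the nontumor groups overlapped. Group means rose in WT from 3376 ± 761 to 13890 ± 1741 (SD, n = 2 each), a log2 difference of 2.05 (SE 0.146, limma adjusted p = 3.8e-06). In EBi3KO the log2 difference was 0.39 (SE 0.146), with both tumor libraries above both nontumor libraries but an adjusted p = 0.0681. It passed in 4 of 20 alternatives, in DESeq2, in a fit of the EBi3KO libraries alone and without either WT nontumor library. The difference between these differences, EBi3KO minus WT, was -1.66 (SE 0.207, adjusted p = 0.000478).

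Itgal, the alpha chain of LFA-1, had 3766 and 3402 normalized counts without and 5735 and 5944 with a tumor in WT, and 3870.1 and 3666 without and 3997 and 3957 with a tumor in EBi3KO. Only the WT tumor libraries were clearly higher, and the nontumor groups overlapped. The rise in WT was 0.71 on the log2 scale (SE 0.0739, adjusted p = 2.87e-05). In EBi3KO the difference was 0.08 (95% interval -0.09 to 0.25, adjusted p = 0.428). The EBi3KO effect minus the WT effect was -0.63 (SE 0.105, adjusted p = 0.00155).

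Of the beta chains, Itgb1, the common partner of many alpha chains, had 3462 and 3757 normalized counts without and 1705 and 1690.2 with a tumor in WT, and 2971 and 3799.9 without and 2690.45 and 2659 with a tumor in EBi3KO. WT tumor was lowest and EBi3KO tumor lay between it and the nontumor groups, which overlapped. It fell in WT by 1.09 on the log2 scale (SE 0.109, adjusted p = 2.29e-05). In EBi3KO it fell by 0.33 (SE 0.109, adjusted p = 0.0484), and this call was lost in 11 of 20 alternatives. Without EBi3KO nontumor replicate 2, the higher of its pair, that difference was -0.15 (adjusted p = 0.231). The EBi3KO effect minus the WT effect was 0.76 (SE 0.155, adjusted p = 0.00391).

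Itgb2, the beta chain of LFA-1 and of the myeloid integrins, had 5449.8 and 5136 normalized counts without and 3396 and 3312 with a tumor in WT, and 5103 and 5508 without and 4779.8 and 4947 with a tumor in EBi3KO. WT tumor was the lowest, EBi3KO tumor lay just under its nontumor group, and the nontumor groups overlapped. It fell in WT by 0.66 on the log2 scale (SE 0.071, adjusted p = 3.43e-05). The difference in EBi3KO was -0.12 (95% interval -0.29 to 0.04, adjusted p = 0.196), and the EBi3KO effect minus the WT effect was 0.53 (SE 0.1003, adjusted p = 0.00269). The 2 chains of LFA-1 thus went in opposite directions in WT.

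Itgb7, the partner of Itga4 in gut homing, had 3833 and 3266 normalized counts without and 4054 and 3703 with a tumor in WT, and 3699 and 3485 without and 4209 and 4165 with a tumor in EBi3KO. All 4 groups lay close together, and in WT the tumor and nontumor libraries overlapped. The log2 difference was 0.13 in WT (95% interval -0.08 to 0.34, adjusted p = 0.21) and 0.22 in EBi3KO (95% interval 0.02 to 0.43, adjusted p = 0.0878). The EBi3KO effect minus the WT effect was 0.09 (95% interval -0.2 to 0.38, adjusted p = 0.569).

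The ligands varied little as deposited, but Icam2 did not in values freed of their length and GC trend. Icam1, which is induced by inflammatory signals, had 1642 and 1893 normalized counts without and 1559.5 and 1491 with a tumor in WT, and 1763 and 1849 without and 1722 and 1948 with a tumor in EBi3KO. Its WT tumor libraries were the lowest by a small margin, and the other groups overlapped. The log2 difference was -0.21 in WT (95% interval -0.42 to 0.0062, adjusted p = 0.0681) and 0.02 in EBi3KO (95% interval -0.19 to 0.24, adjusted p = 0.877). Icam2, a constitutive ligand of LFA-1, had 1705 and 1685 normalized counts without and 1846 and 1818 with a tumor in WT, and 1735 and 1778 without and 1996 and 2039 with a tumor in EBi3KO. Both tumor groups lay slightly above their nontumor group, EBi3KO tumor highest. The difference did not pass in WT (0.11, 95% interval -0.04 to 0.26, adjusted p = 0.143). Icam2 rose in EBi3KO by 0.2 (SE 0.0656, adjusted p = 0.0463), which was lost in 10 of 20 alternatives. With the length and GC trend removed, it rose by 1.05 in WT (adjusted p = 3.63e-06) and by 0.43 in EBi3KO (0.0034), and the EBi3KO effect minus the WT effect was -0.62 (0.00234) in place of 0.09.

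Cd44 had 5954 and 6288 normalized counts without and 2464 and 2382 with a tumor in WT, and 4971 and 6298 without and 4299.7 and 4259 with a tumor in EBi3KO. As for Itgb1, WT tumor was lowest, EBi3KO tumor lay in between, and the nontumor groups overlapped. Cd44 fell in WT by 1.34 on the log2 scale (SE 0.105, adjusted p = 5.99e-06). It also fell in EBi3KO, by 0.39 (SE 0.105, adjusted p = 0.0258). This was lost in 5 of 20 alternatives, among them the fit without EBi3KO nontumor replicate 2 (-0.22, adjusted p = 0.107). The EBi3KO effect minus the WT effect was 0.95 (SE 0.148, adjusted p = 0.00118).

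**Figure D2:**
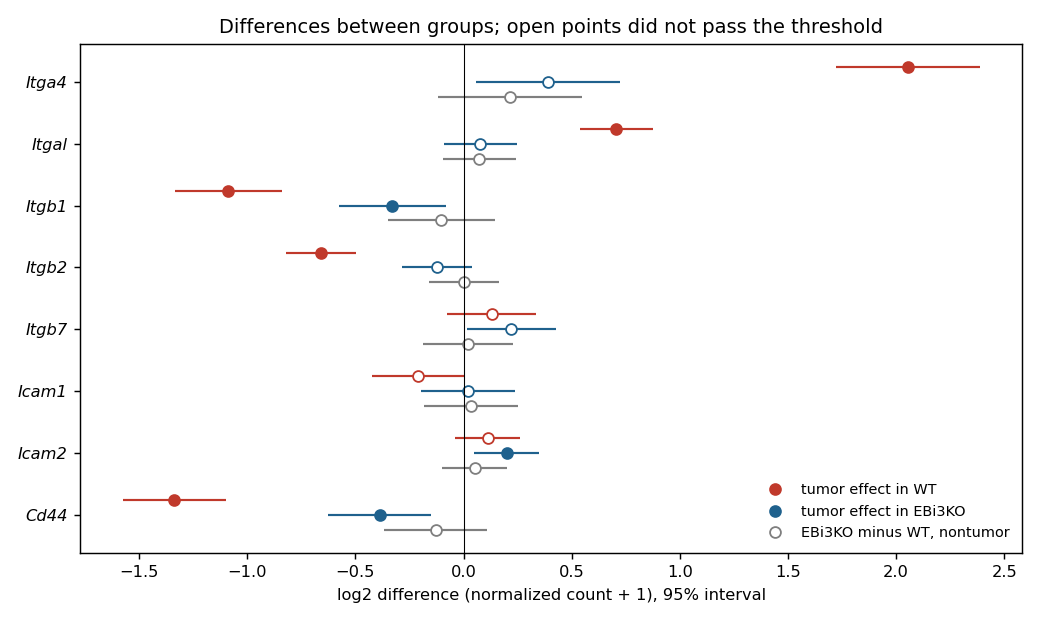
Log2 differences of the 8 genes with 95% intervals for the tumor effect in WT, the tumor effect in EBi3KO and EBi3KO minus WT without a tumor; filled points passed an adjusted p of 0.05. Itga4 reaches 2.05 and Cd44 -1.34 in WT, and all intervals of the nontumor comparison span 0.

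The tumor effects in WT and in EBi3KO share no library. They had the same sign for 7 of the 8 genes, all but Icam1, and for 83.3% of all 13011 genes. Itgb1 and Cd44 fell in both. With the close pair of EBi3KO tumor libraries averaged into 1 sample, 0 of the 8 genes passed in EBi3KO, and Cd44 stood at -0.39 (adjusted p = 0.136).

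Without a tumor the genotypes were compared in libraries of 1 title prefix and sex pattern. By limma 0 of the 8 genes passed, as did 0 of all 13011 genes, a background of 0%. At an unadjusted p below 0.05 there were 0 of the 8 and 1049 of all genes. edgeR on the recovered reads called 0 genes and DESeq2 called 21, none of them among the 8. On the log2 scale the intervals of EBi3KO minus WT were -0.12 to 0.55 for Itga4 and -0.35 to 0.15 for Itgb1. They were -0.37 to 0.11 for Cd44 and -0.16 to 0.16 for Itgb2. These intervals cover only the spread among libraries, which may be technical, so they do not bound a difference between mice. Across genes this genotype difference also rose with transcript length (Spearman's rho 0.285 over 12868 genes, which are not independent replicates). With the length and GC trend removed, 0 of 12868 genes passed.

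With a tumor, EBi3KO was compared with the same WT tumor libraries that enter the tumor effect in WT, so the values mirror it and are no second line of evidence. Of the 8 genes 4 were higher and 2 lower in EBi3KO tumor, against 60.5% of all genes past the threshold. Itga4 was lower by a log2 difference of -1.45 (adjusted p = 8.97e-05) and Itgal by -0.55 (0.000315). Cd44 was higher by 0.82 (0.000255), Itgb1 by 0.66 (0.00101) and Itgb2 by 0.54 (0.000304). Icam1 was higher by 0.26 (0.0379), which was lost in 8 of 20 alternatives, while Itgb7 (0.11, 0.308) and Icam2 (0.14, 0.0947) did not pass. Across genes this difference fell with transcript length (Spearman's rho -0.517 over 12868 genes, which are not independent replicates). With the length and GC trend removed, Itga4 stood at -0.63 (0.000287), Itgal at -0.30 (0.00328) and Cd44 at 1.30 (0.000169). Itgb1 stood at 0.86 and Itgb2 at 0.46, and both passed. Icam1 stood at 0.07 (0.555) and no longer passed, while Icam2 passed at -0.49 (0.000791).

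The balance between partner transcripts differed between the groups. The log2 ratio of Itga4 to Itgb1 (normalized counts with 1 added) was 0.18 and -0.4 without and 2.89 and 3.16 with a tumor in WT, and 0.46 and -0.05 without and 0.91 and 0.93 with a tumor in EBi3KO. Both tumor groups lay above both nontumor groups with no overlap, and WT tumor above EBi3KO tumor. The ratio of Itga4 to Itgb7 was 0.03 and -0.2 without and 1.64 and 2.03 with a tumor in WT, and 0.14 and 0.07 without and 0.27 and 0.28 with a tumor in EBi3KO. The ratio of Itgal to Itgb2 was -0.53 and -0.59 without and 0.76 and 0.84 with a tumor in WT, and -0.4 and -0.59 without and -0.26 and -0.32 with a tumor in EBi3KO. Between the alternative partners of Itga4, the ratio of Itgb7 to Itgb1 was 0.15 and -0.2 without and 1.25 and 1.13 with a tumor in WT, and 0.32 and -0.12 without and 0.65 and 0.65 with a tumor in EBi3KO. In all 4 ratios of the deposited values the order was WT tumor, then EBi3KO tumor, then the nontumor groups. For Itga4 to Itgb7 this order did not hold in values freed of their trend on length and GC content. The change of that ratio with a tumor then went from 1.92 to 0.49 in WT and from 0.17 to -0.15 in EBi3KO. The change of Itga4 to Itgb1 went from 3.14 to 2.19 in WT and from 0.72 to 0.47 in EBi3KO, and that of Itgal to Itgb2 from 1.36 to 0.89 and from 0.2 to 0.11. The change of Itgb7 to Itgb1 became larger, from 1.22 to 1.70 in WT and from 0.55 to 0.61 in EBi3KO. The nontumor groups overlapped in all but the ratio of Itga4 to Itgb7, where EBi3KO nontumor lay slightly higher. With 2 libraries a group these ratios were not tested.

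**Figure D3:**
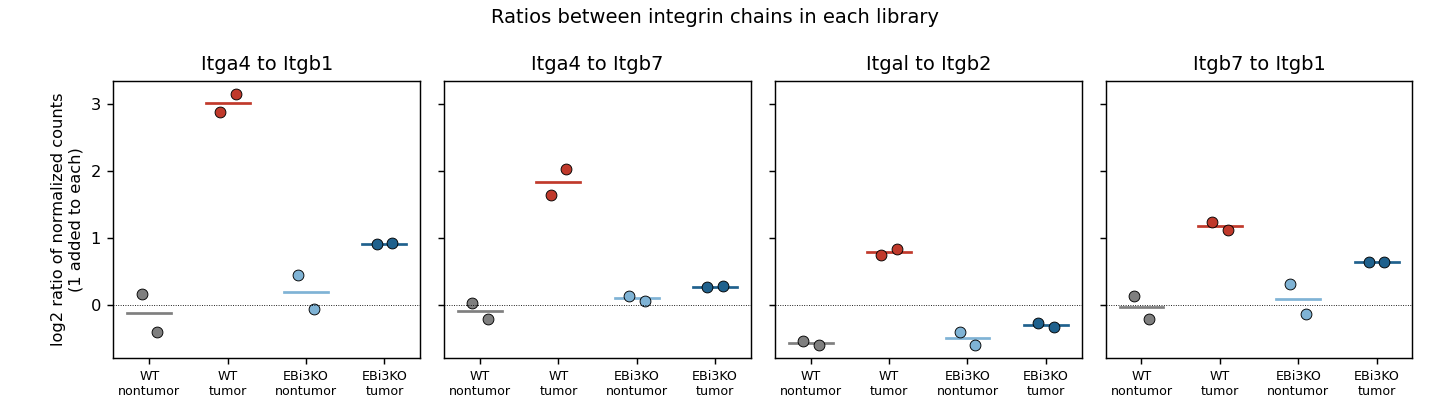
Log2 ratios of normalized counts between integrin chains (y axis) in each library, by group (x axis), with lines at group means. As deposited, WT tumor is highest in all 4 panels with EBi3KO tumor next; for Itga4 to Itgb7 the EBi3KO change turns from 0.17 to -0.15 with the length and GC trend removed.

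Levels of different genes were compared per kilobase of the longest principal transcript in GENCODE M21 (GRCm38), which runs from 1282 bases for Icam2 to 9767 bases for Itga4. In WT nontumor Itgb2 was highest at 1782 ± 74.7 normalized counts per kilobase (SD, n = 2), Itgb7 and Icam2 followed at 1323 ± 149 and 1322 ± 11.2, and Cd44 stood at 1090.3 ± 42.1. Itgb1 stood at 946 ± 54.7, Icam1 and Itgal at 697 ± 70.0 and 689.9 ± 49.6, within their spread of each other, and Itga4 was lowest at 346 ± 77.9. In WT tumor the order differed. Itga4 at 1422 ± 178 per kilobase then lay beside Itgb7 (1445 ± 92.5) and Icam2 (1429 ± 15.8), within the spread, and Cd44 (432 ± 10.4) and Itgb1 (445 ± 2.72) were lowest. Among all tested genes with a length, the level of Itga4 per kilobase stood at the percentile 66.0 without and 92.3 with a tumor in WT, and at 68.8 without and 75.3 with a tumor in EBi3KO.

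Per kilobase, the ratio of Itga4 to the sum of its partners Itgb1 and Itgb7 was 0.172 and 0.132 without and 0.662 and 0.849 with a tumor in WT, and 0.194 and 0.163 without and 0.228 and 0.231 with a tumor in EBi3KO. Transcripts of the partners thus outnumbered those of Itga4 in every library. Itgal per Itgb2 was 0.395 and 0.379 without and 0.965 and 1.03 with a tumor in WT, and 0.434 and 0.381 without and 0.478 and 0.457 with a tumor in EBi3KO. These ratios and the levels per kilobase carry the trend on length, which was not removed from them. They are ratios of transcripts, and Itgb1 and Itgb2 have further partners.

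Across the 8 libraries, with each gene centred on its own mean log2 value, Itgb7 and Icam2 were the closest pair of the set, at a root mean square difference of 0.0703. Itgb1 and Cd44 came next at 0.098. Itga4 was nearest to Itgal, at 0.533, and its range was wider than that of any other of the 8. Of 9593 genes with a mean of at least 100 normalized counts, those closest to Itga4 were Kat6a (0.0421), a histone acetyltransferase, Phc3 (0.0569), a Polycomb subunit, and Vps13b (0.0617). Closest to Cd44 were Abracl (0.0363), Hexa (0.0399), a lysosomal hexosaminidase subunit, and Tmem242 (0.0514). Closest to Itgb1 were Arf2 (0.0353), Cycs (0.0437), which encodes cytochrome c, and Skp1a (0.0441). The libraries fall into separate groups, so this measure follows mainly the group means. It was taken from the values as deposited, which carry the trend on transcript length. With the length and GC trend removed, the tumor difference in WT was 0.34 for Itgb7 and 1.05 for Icam2, so this pair was less alike there.

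Of 16 other integrin chains tested, 4 rose, 8 fell and 4 did not pass in WT, at a median log2 difference of -0.69 against 0.01 over all tested genes, of which 39.6% rose and 40.1% fell. Itgad, an Itgb2 partner found on splenic red pulp macrophages, went from 7681 ± 269 to 638 ± 110 normalized counts (-3.60, adjusted p = 2.69e-07), and Itgax, the CD11c chain of dendritic cells and macrophages, from 771 ± 31.0 to 218 ± 26.1 (-1.82). Itgb5, a partner of the alpha v chain, fell by 3.07 and Itga9, a partner of Itgb1, fell by 2.25. In EBi3KO 1 rose, 5 fell and 10 did not pass (median -0.21), where 14.1% of all genes rose and 18.5% fell. There Itgb5 stood at -0.90, Itgad at -0.99, Itga9 at -0.61 and Itgae, the other partner of Itgb7, at -1.12.

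Genes that activate integrins or link them to the cytoskeleton went both ways. Of 29 tested, 12 rose, 13 fell and 4 did not pass in WT (median 0.15), and 4 rose, 1 fell and 24 did not pass in EBi3KO (median 0.01). In WT the Rap1 exchange factor Rapgef6 rose by 1.68 and the kinase Stk4 (MST1) by 0.84, while the focal adhesion protein Zyx fell by 1.35 and the adaptor Fyb by 1.30. In EBi3KO Rapgef6 rose by 0.50, Rasgrp2, an exchange factor for Rap1, by 0.37 and Cytip, which restrains integrin activation, by 0.30, and Parvg fell by 0.30. With the trend on length and GC content removed, Rapgef6 stood at 0.63 in WT and 0.28 in EBi3KO and Stk4 at 0.24 in WT, all past the threshold. Cytip stood at 0.14 in EBi3KO and no longer passed (adjusted p = 0.157). Tln1 and Fermt3, talin and kindlin-3, which bind beta chain tails, were picked out after their values were seen. In WT Tln1 rose by 0.66 (adjusted p = 9.39e-05) and Fermt3 fell by 0.65 (0.000186). After the same removal Tln1 stood at -0.13 (0.0856) and Fermt3 at -0.43 (0.00179).

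Of the ligands of integrins and CD44, 7 were tested, of which 0 rose and 5 fell in WT (median -1.48), beside 79.8% of all genes called and 40.1% falling. Vcam1, the ligand of the Itga4 integrins, fell from 25019 ± 418 to 2115 ± 147 normalized counts in WT (-3.57, adjusted p = 2.69e-07) and from 26168 ± 6466 to 14653 ± 140 in EBi3KO (-0.81, adjusted p = 0.0055). In WT F11r, a junctional ligand of LFA-1, stood at -2.69 and Icam4, an erythroid ligand, at -4.98, and Icam4 stood at -3.16 in EBi3KO. In EBi3KO 0 of the 7 rose and 3 fell, beside 18.5% of all genes falling. Of 17 other surface adhesion molecules of leukocytes 10 rose and 5 fell in WT (median 0.28), and 5 rose and 2 fell in EBi3KO (median 0.17), beside 79.8% and 32.6% of all genes called. Ceacam1 rose by 1.68 in WT and 0.49 in EBi3KO, Alcam by 1.40 and 0.57, and Cd22, a B cell lectin that damps antigen receptor signals, by 1.43 and 0.61. Alcam in WT stood at 0.63 with the length and GC trend removed.

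Markers of other splenic cells also differed between the groups, not all in the same way. In WT all 14 tested monocyte and macrophage markers fell, and their sum went from 168689 and 188686 normalized counts to 16909 and 14681. Vcam1, given above as a ligand, is among these markers. In EBi3KO 12 of the 14 fell, with sums of 141229 and 181758 without and 85413 and 84969 with a tumor, and none of the 14 was at 0 in any group. T cell markers summed to 1893 to 1942 in WT nontumor and 1276 to 1341 in WT tumor, where 7 of 11 fell, and to 1711 to 1954 and 2029 to 2152 in the EBi3KO groups, where 1 of 11 fell. Platelet markers summed to 4619 to 7718 in WT nontumor and 2164 to 2467 in WT tumor, where 6 of 9 fell, and in EBi3KO to 3935 to 4482 and 4215 to 4241, where 0 of 9 passed. Genes of the set are expressed by these cells too, Itgb1, Itgb2, Cd44 and Itgal among them. The part of the markers' change in the values of the 8 genes was not tested. In such bulk libraries fewer cells of a type and less RNA per cell cannot be told apart.

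**Figure D4:**
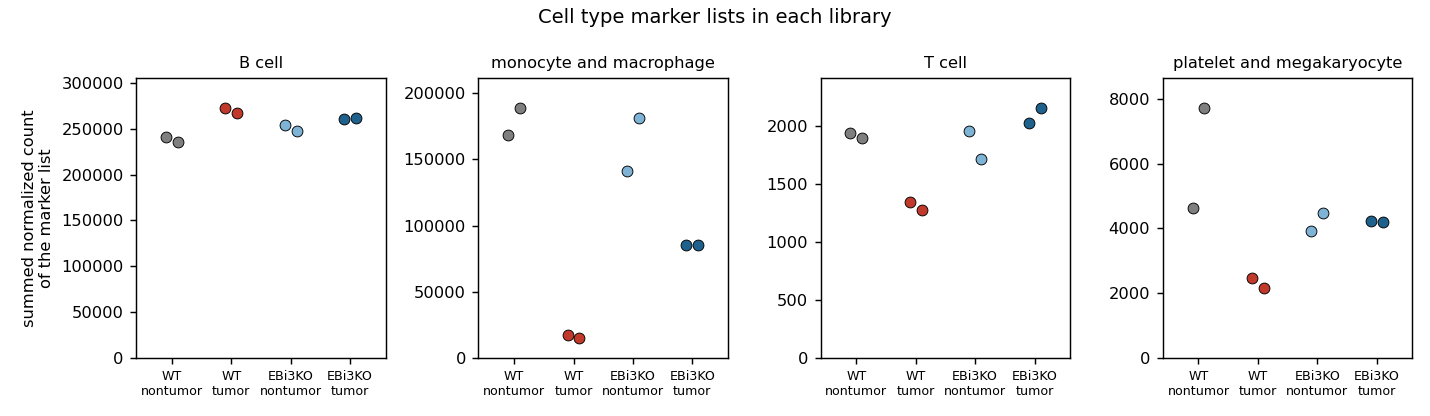
Summed normalized counts of 4 cell type marker lists (y axes from 0) in each library by group. The monocyte and macrophage sum is lowest in WT tumor at 14681 and 16909 and intermediate in EBi3KO tumor.

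Across genes the tumor difference in WT rose with transcript length, at a Spearman's rho of 0.447 over 12868 genes, which are not independent replicates, so the values were computed again after each library's trend on length and GC content was removed. The tumor difference in EBi3KO also rose with length, at a rho of 0.257. The 5 calls of the WT tumor effect kept their direction and passed, but sizes changed. Itga4, the longest transcript, went from 2.05 to 0.83 (adjusted p = 1.57e-05), Itgal from 0.71 to 0.31 (0.0009) and Cd44 from -1.34 to -2.02 (3.85e-06). Itgb1 stood at -1.36 and Itgb2 at -0.58. Icam2, the shortest, went from 0.11 to 1.05 and passed (3.63e-06), as did Itgb7 at 0.34 (0.00671). For the EBi3KO effect minus the WT effect the 5 calls also kept their direction, with Itga4 at -0.72 (0.00145) and Cd44 at 1.51 (0.000883). The other integrin chains stood at 2 up and 8 down of 16 in WT after the removal, and in EBi3KO at 0 up and 4 down. Over all 12868 genes 4958 then rose and 4490 fell in WT, and 2136 rose and 1945 fell in EBi3KO.

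**Figure D5:**
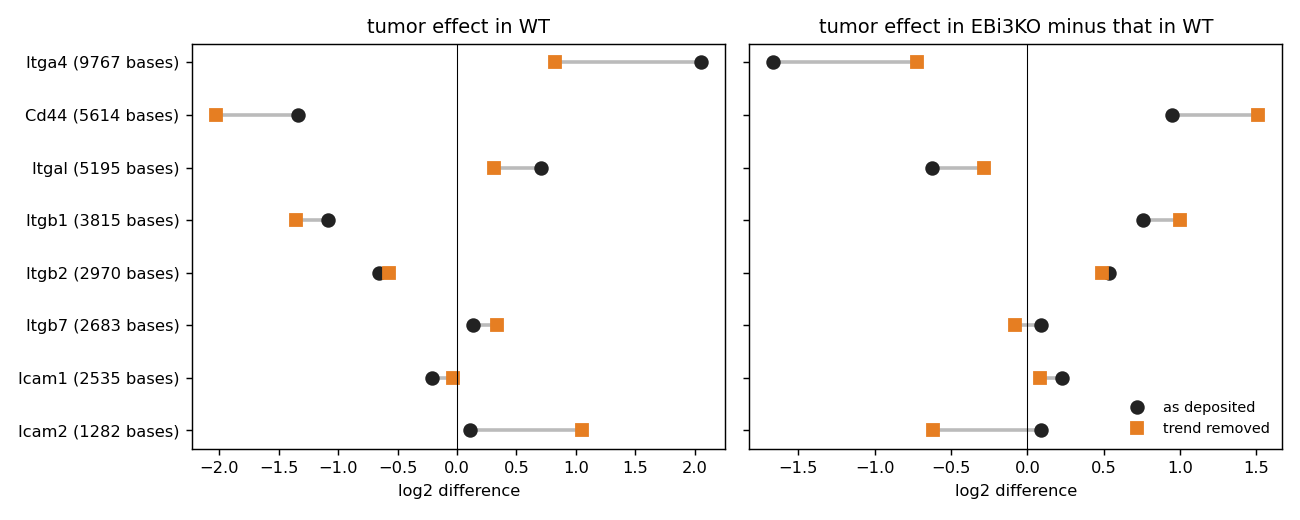
Log2 differences (x axes) of the 8 genes, ordered by transcript length, as deposited (circles) and with the trend on length and GC removed (squares), for the tumor effect in WT and for the EBi3KO effect minus the WT effect. Itga4 moves from 2.05 to 0.83 and Icam2 from 0.11 to 1.05 in WT.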

How the data were processed

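RNA was sequenced from paired-end TruSeq stranded mRNA libraries, per the labels' protocols. Reads were quantified with Salmon and normalized with DESeq2, with mm10 as the genome build, per the submitters' processing notes, and no version or option is stated there. What the authors deposited is a signal, the normalized count of each gene symbol in each library. All values of a library were whole multiples of 1 step (100% within a tolerance of 0.01), which gave the reads per gene and a depth of 21291892 to 28297319 reads.

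Genes with a mean of 10 or more, 13011 in all, were taken to log2 after adding 1 and fitted with limma 3.58.1 in R 4.3.3, as 1 model with a mean per group and an intensity trend (4 residual and 4.64 prior degrees of freedom). Tests are two-sided, with Benjamini-Hochberg adjustment over all tested genes within each of 5 comparisons. The SE of a log2 difference is limma's, and intervals are at 95%. The members and all gene lists were chosen with earlier results of these data known. Of each of 7 lists of related genes, the 4 with the smallest p in a comparison may be named, and for likeness the 3 nearest genes, with gene models named Gm or ending in Rik passed over. Markers were 10 lists of cell types, of which those of B cells, monocytes and macrophages, T cells and platelets are described with the 8 genes and the others afterwards. Some markers also stand in the lists of related genes, among them Vcam1, Itgax, Itga2b, Itgb3, Cd22 and Pecam1.

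Alternatives were other pseudocounts, filters, scalings and moderation, a fit of the compared groups only, leaving out each library, the EBi3KO tumor libraries averaged, removal of the length and GC trend (12868 genes with a GENCODE transcript, 98.9%), a title-number block, and 2 count tests on the recovered reads, edgeR 4.0.16 and DESeq2 1.42.0. In simulated libraries with 200 genes changed 2-fold, limma recovered 77% of them for the tumor effect in WT (12946 genes), 76.5% for that in EBi3KO (12954 genes) and 84% for the genotype effect without a tumor (12942 genes). False calls made up 7.78%, 3.77% and 11.1% of the calls, in that order. The simulation held no length trend and far fewer changed genes than the data, where 79.8% of genes passed in WT. These rates therefore need not hold for the comparisons reported here.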

Additional observations from a re-analysis of the deposited data

Results flagged for a closer look

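The tumor difference in EBi3KO differed from that in WT for 5 of the 8 genes by limma's test of the difference itself, which compares all 4 groups and carries the title prefix and sex pattern of the WT tumor libraries. On the log2 scale, as the EBi3KO effect minus the WT effect, Itga4 stood at -1.66 (adjusted p = 0.000478).

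Itgal stood at -0.63 (adjusted p = 0.00155). Itgb1 stood at 0.76 (0.00391) and Itgb2 at 0.53 (0.00269). Cd44 stood at 0.95 (0.00118). In all 5 the difference in EBi3KO had the same sign as in WT and was smaller.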

How the results depend on the processing

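Of the 5 genes called in the WT tumor effect, all kept their direction and their call in each of 21 alternatives, with ranges of 0.83 to 2.28 for Itga4, 0.31 to 0.78 for Itgal, -1.36 to -1.03 for Itgb1, -0.74 to -0.58 for Itgb2 and -2.02 to -1.30 for Cd44. The 5 called for the EBi3KO effect minus the WT effect did so in each of 19. The count of 3 genes called in EBi3KO was less stable. It went to 0 without the intensity trend in the moderation and with the pair of EBi3KO tumor libraries merged into 1 sample, and lay between 0 and 5 when each library was left out in turn. It was 0 without EBi3KO nontumor replicate 2 and without either EBi3KO tumor library, 1 without either WT tumor library and 5 without either WT nontumor library. A group left with 1 library was assumed to vary like the others. Removal of the length and GC trend turned Icam2 to -0.49 (adjusted p = 0.000791) for EBi3KO minus WT with a tumor and to -0.62 (0.00234) for the difference of the tumor effects. The cause of these changes was not tested. Over all 13011 genes the calls in EBi3KO numbered 4242, against 2375 without the intensity trend. In the fits named above with 1 library in a group, the calls over all genes went up or down as those of the 8 genes did. The changes in the count of the 8 thus followed the background. With the title number as a replicate block in WT, which no label says pairs the libraries, 5 of the 8 genes were called as without it, and Itga4 stood at 2.05 (adjusted p = 2.44e-10). A fit of the compared libraries alone was the same as the given one for the difference of the tumor effects and was not repeated. The lowest value of the 8 genes in any library was 1491 normalized counts, and the 2 libraries a group limit the precision.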

Other observations

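Over all tested genes 39.6% rose and 40.1% fell in WT with a tumor, and 14.1% rose and 18.5% fell in EBi3KO. With the length and GC trend removed, 4958 of 12868 genes rose and 4490 fell in WT. In EBi3KO 2136 then rose and 1945 fell. The counts of the lists that follow stand beside these values of the same setting. Of 8 tetraspanins, membrane proteins that organise integrins into clusters, 0 rose and 6 fell in WT with a tumor (median log2 difference -0.98). Cd82 fell by 1.80, from 9299 ± 756 to 2676 ± 245 normalized counts (SD, n = 2 each), Cd81, a part of the B cell coreceptor, by 1.30, and Cd9 by 1.68, and Cd63 stood at -3.46. In EBi3KO 0 rose and 2 fell, Cd82 by 0.68 and Cd81 by 0.58. With the trend on length and GC removed, 2 rose and 4 fell in WT, and 2 rose and 2 fell in EBi3KO, with Cd81 at -0.57 and Cd9 at -0.92 in WT. Of 9 genes of ERM proteins and CD44 partners 4 rose and 4 fell in WT (median 0.17), with the kinases Stk10 at 1.15 and Rock1 at 1.34, the GTPase Rhoa at -0.67 and Cd24a at -0.51. After that removal 3 rose and 2 fell, with Rock1 at 0.46 and Cd24a at -0.20. In EBi3KO 0 rose and 1 fell, Cd24a by 0.58.

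In the selectin and hyaluronan list 4 of 10 rose and 6 fell in WT (median -1.12). Selplg, the ligand of P-selectin, fell from 2788 ± 154 to 1216 ± 144 normalized counts and the sialyltransferase St3gal4 fell by 1.93, while the glycosyltransferase Gcnt1 rose by 0.84 and Hmmr, a hyaluronan-binding protein of the mitotic spindle, by 0.81. In EBi3KO 0 rose and 3 fell, St3gal4 by 1.05, Selplg by 0.38 and Hyal2, a hyaluronidase, by 0.68. With the length and GC trend removed, 4 rose and 6 fell in WT, where Selplg stood at -0.59, Gcnt1 at 0.34 and Hmmr at 0.49. In EBi3KO 0 rose and 2 fell, and Selplg at -0.25 no longer passed (adjusted p = 0.06).

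Of the marker lists not described above, plasma cell markers summed to 42260 to 45019 normalized counts in WT nontumor, 9833 to 11569 in WT tumor, 31814 to 33380 in EBi3KO nontumor and 56860 to 56868 in EBi3KO tumor. Erythroid markers summed to 205732 to 217743 in WT nontumor and 18030 to 26135 in WT tumor. In EBi3KO they summed to 323647 to 493001 without and 77747 to 79916 with a tumor. EBi3KO nontumor thus lay above WT nontumor in this sum, though 0 of the 12 markers passed between them. With a tumor 12 of 12 erythroid markers fell in both genotypes. In WT 10 of 11 granulocyte, 7 of 8 NK cell, 9 of 10 dendritic cell and 5 of 7 stromal markers fell, and in EBi3KO 8 of 11, 0 of 8, 4 of 10 and 3 of 7. Of the granulocyte and stromal lists, 1 marker each rose in WT and 0 in EBi3KO. The stromal sum was higher in WT tumor (6021 and 6300) than in WT nontumor (4665 and 4144). Pecam1 made up most of it, at 5758 and 6081 with and 4103 and 3320 without a tumor.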
